A study of Mus musculus with 8 samples.

Results

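The genes described here are the 10 CC chemokine ligands and receptors of the panel that guide dendritic cells, T cells and eosinophils, taken by symbol from the 248 genes measured. They are Ccl19, Ccl21a and their receptor Ccr7, Ccl17, Ccl22 and their receptor Ccr4, the Ccr6 ligand Ccl20, and Ccl11, Ccl24 and their receptor Ccr3. The question put to them was whether the ligands and the receptor of each axis differed in the conjunctiva between mice given tributyrin and mice given vehicle during desiccating stress (DS). Both groups were female C57BL/6 mice (C57BL/6J in the extraction protocol and the study's methods), 8 weeks old by their labels (the study's methods give a wider range), and all were under DS for 5 days, that is, in drafty, dry air with scopolamine injections to block tear secretion. The 4 vehicle mice (numbered 5 to 8) were gavaged each day with PBS, and the 4 tributyrin mice (numbered 9 to 12) with tributyrin, a triglyceride that releases butyrate. Both groups were therefore stressed, and the unstressed group was not analysed here. RNA of the whole conjunctiva was counted on the NanoString nCounter platform, which counts barcoded probe pairs bound to each transcript without amplification.

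CC chemokines are small secreted proteins that draw leukocytes through G protein-coupled receptors. CCR7 brings maturing dendritic cells and naive T cells along lymphatic vessels and into lymph nodes, the route by which antigen of the ocular surface reaches T cells. CCR4 marks Th2 and regulatory T cells that home to barrier tissue, CCR6 marks Th17 cells and immature dendritic cells, and CCR3 is the main receptor of eosinophils for the eotaxins, which are prominent in allergic conjunctivitis.

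Ccl21a belongs to a cluster of near-identical genes on mouse chromosome 4, so its value may include copies of it. In the RefSeq table for GRCm38.p6, the sequence upstream of the start was the same at 248 of 249 aligned bases in Ccl21d, and at 247 of 249 in Gm10591 and in Gm13304. For Ccl21b no bases could be compared, and Ccl21c had no entry, so neither is shown. A window of 100 bases, beginning 160 bases before the start, holds both positions at which these genes differ, which are in capitals. The lines below show how little separates the copies (Ccl21a at chr4:42774052-42774151 on the minus strand, Ccl21d at chr4:41903452-41903551, Gm10591 at chr4:42611962-42612061 and Gm13304 at chr4:42114626-42114725, the last 3 on the plus strand).
Ccl21a: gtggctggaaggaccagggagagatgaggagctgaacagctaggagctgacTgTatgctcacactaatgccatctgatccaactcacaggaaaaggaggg
Ccl21d: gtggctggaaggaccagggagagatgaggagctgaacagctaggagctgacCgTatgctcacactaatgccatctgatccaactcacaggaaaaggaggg
Gm10591: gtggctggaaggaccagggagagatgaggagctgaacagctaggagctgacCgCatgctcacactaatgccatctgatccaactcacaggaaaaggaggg
Gm13304: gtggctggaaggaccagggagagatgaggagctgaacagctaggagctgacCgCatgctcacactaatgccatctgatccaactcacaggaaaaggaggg
Gm10591 and Gm13304 were identical over the window, and Ccl21d carried 1 of the differences between them and Ccl21a. The transcripts and the probe sequence were not compared here, so the Ccl21a value is read as that of the probe and may sum several genes.

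Values below are normalized counts, that is, counts scaled by the authors to reference genes, and fold changes are log2 of tributyrin over vehicle. The table gave back whole counts of 742068 to 1494519 per mouse, and the smallest total was that of tributyrin mouse 9, which was scaled up 1.56-fold, followed by tributyrin mouse 12, scaled up 1.24-fold. The other 6 mice had factors of 0.741 to 1.08. Ccr7 had only 10 to 18 counts per mouse, Ccr4 had 5 to 18 and Ccr3 had 9 to 35, while Ccl21a had 516 to 996. By mean normalized count Ccr7 ranked 6, Ccr4 ranked 5 and Ccr3 ranked 16 from the lowest of 248 genes. Whether these receptors lay above the background of the platform was not tested. Genes at low level tended to be higher with tributyrin throughout the panel: 62 of the 73 genes with a mean under 50 were higher, with a median log2 fold change of 0.20, against 58 of 97 genes and a median of 0.020 at a mean of 1000 or more. Of these low genes 47 of 73 were higher without tributyrin mice 9 and 12, with a median of 0.067, and 38 of 73 with quantile normalization, with a median of 0.015.

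No member passed the panel-wide test. At a Benjamini-Hochberg adjusted p under 0.05, limma called 0 of 10 members and 0 of 248 genes (0%), and voom on the recovered counts called 7 genes, none of them a member. At an unadjusted p under 0.05 it called Ccr7 and Ccl19 higher, where 7.26% of all genes were called higher, and Ccr3 lower, where 5.24% were called lower. Of the 10 genes, 7 were higher in the tributyrin group, beside 71.4% of the panel, and their median log2 fold change was 0.27, beside 0.055 over all genes. With quantile normalization 6 of 10 were higher and the median was 0.13, and without tributyrin mice 9 and 12 it was 0.14 with 8 of 10 higher. The groups did not overlap for 1 of the 10, Ccr7, where 3.23% of genes were higher and 4.03% lower without overlap. The highest and the lowest log2 fold change of the 10 members were both of receptors with few counts. Ccr7 had the highest log2 fold change of the 248 genes, ranking 1 to 6 over the alternatives that kept it. Ccr3 had the lowest of the 73 genes with a mean under 50, ranking 1 to 3. It was not the lowest of the panel, where genes at higher levels reached -1.35.

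**Figure D1:**
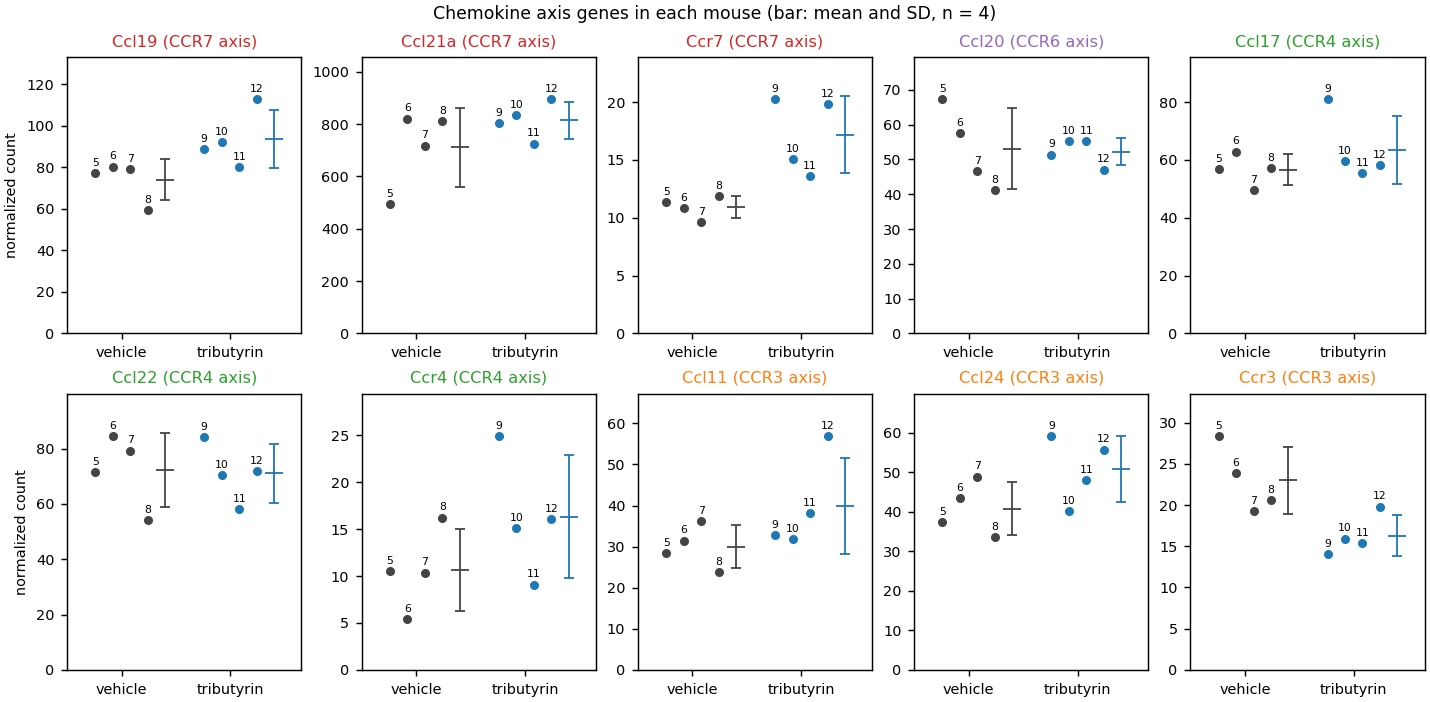
Normalized count (y axis, from 0, each panel on its own scale) of the 10 genes in each mouse, with the mouse number above each point and bars for the mean and SD of 4 mice. The vehicle and tributyrin points do not overlap for Ccr7, and for Ccl19 and Ccr3 they overlap by a single pair of mice.

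In the CCR7 axis both ligands and the receptor were higher with tributyrin in the mean, as was 71.4% of the panel, and none passed the adjusted threshold. The receptor had the largest difference of these genes. Ccr7 was measured at 11.4, 10.8, 9.63 and 11.9 in vehicle mice 5 to 8, and at 20.3, 15.1, 13.6 and 19.8 in tributyrin mice 9 to 12. Every tributyrin mouse lay above every vehicle mouse. The means were 10.9 ± 0.969 and 17.2 ± 3.34 (SD, n = 4 each), a 1.55-fold difference with a log2 fold change of 0.64 ± 0.14 (SE, 95% interval 0.30 to 0.97). The limma p was 0.00243 and 0.0752 after adjustment over 248 genes, and the exact rank test gave p = 0.0286, the smallest that 4 against 4 mice can give. So the difference was larger than the spread within either group but missed the panel-wide threshold.

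Few counts stood behind these Ccr7 values. Before scaling, the counts were 14, 10, 13 and 11 in the vehicle mice and 13, 18, 15 and 16 in the tributyrin mice, with sums of 48 and 62, and the groups overlapped. After scaling, the ratio of the pooled counts was 1.53 with a 95% interval of 1.03 to 2.28 for counting error alone. The log2 SD of the vehicle mice was 0.13, where counting error alone would give 0.42. In the tributyrin mice it was 0.29, where counting error would give 0.37. The limma SE of 0.14 was thus below the counting SE of 0.28, so the limma interval and p overstate the precision. Mice 9 and 12, the tributyrin mice with the largest scaling factors, also had the highest Ccr7 values. Without them the log2 fold change was 0.40 (limma adjusted p = 0.366), and it was 0.50 when each mouse's scaling factor entered as a covariate (limma adjusted p = 0.115). Ccr7 passed the threshold with median centring (0.62, limma adjusted p = 0.0371) and without tributyrin mouse 11 (0.74, limma adjusted p = 0.0484).

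Ccl19, made by stromal cells and mature dendritic cells as a soluble CCR7 ligand, was measured at 77.1, 80.3, 79.2 and 59.5 in vehicle mice 5 to 8 and at 88.8, 92.2, 79.9 and 112.7 in tributyrin mice 9 to 12. The groups overlapped only because tributyrin mouse 11 lay just under vehicle mouse 6. Their means of 74.0 ± 9.78 and 93.4 ± 13.9 (SD, n = 4 each) gave a log2 fold change of 0.33 ± 0.13 (SE), with a limma p of 0.0390 and 0.366 after adjustment. With quantile normalization the value was 0.15, and without mice 9 and 12 it was 0.22.

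Ccl21a, a CCR7 ligand that lymphoid stroma holds on its surface, had values of 494.8, 821.2, 718.4 and 812.2 in the vehicle mice and 804.0, 835.1, 725.9 and 895.4 in the tributyrin mice. Vehicle mouse 5 stood below all others, and the remaining vehicle mice lay within or just below the tributyrin range. The log2 fold change was 0.22 ± 0.17 (SE, 95% interval -0.16 to 0.60, limma adjusted p = 0.597), and it was 0.055 without vehicle mouse 5. Counting error is small at this level (0.037 on the log2 scale), so the spread between mice set the precision.

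The CCR4 axis showed no difference beyond the spread of the mice in either ligand. Ccl17, which dendritic cells make and which draws CCR4-bearing T cells, was measured at 56.8, 62.9, 49.6 and 57.3 in vehicle mice 5 to 8 and at 81.0, 59.5, 55.4 and 58.2 in tributyrin mice 9 to 12. Mouse 9 was alone in lying above the vehicle range. The log2 fold change of 0.15 ± 0.13 (SE, limma adjusted p = 0.667) was 0.031 without that mouse and -0.060 with quantile normalization.

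Ccl22, the second CCR4 ligand, made by dendritic cells and macrophages, was measured at 71.4, 84.6, 79.2 and 54.1 in the vehicle mice and at 84.1, 70.4, 58.1 and 71.8 in the tributyrin mice. The tributyrin values lay wholly inside the vehicle range. Their means were 72.3 ± 13.3 and 71.1 ± 10.7 (SD, n = 4 each), and the log2 fold change was -0.017 with a 95% interval of -0.40 to 0.36 (limma adjusted p = 0.973), which leaves room for a difference of that size either way.

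The receptor Ccr4 was measured at 10.5, 5.42, 10.4 and 16.2 in vehicle mice 5 to 8 and at 24.9, 15.1, 9.07 and 16.1 in tributyrin mice 9 to 12. Its log2 fold change of 0.63 was close to that of Ccr7, but the groups overlapped widely. The SE was 0.39 and the 95% interval -0.28 to 1.53 (limma adjusted p = 0.480), against an SE of 0.14 for Ccr7. The counting SE was 0.28 for both receptors, so Ccr7 was not the better measured of them by its counts. Counts before scaling were 13, 5, 14 and 15 in vehicle mice and 16, 18, 10 and 13 in tributyrin mice, and vehicle mouse 6 with 5 counts was the lowest of all. The log2 fold change was 0.34 with mouse 6 left out. Without tributyrin mice 9 and 12 the value was 0.24 (limma adjusted p = 0.979).

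Ccl20, the CCR6 ligand that epithelium secretes in response to IL-17 and which attracts Th17 cells, was level between the groups in its mean. It was measured at 67.3, 57.5, 46.7 and 41.1 in the vehicle mice and at 51.4, 55.3, 55.4 and 47.1 in the tributyrin mice, all of the latter inside the vehicle range. The means were 53.1 ± 11.7 and 52.3 ± 3.95 (SD, n = 4 each). Its log2 fold change of -5.25e-04 had a 95% interval of -0.36 to 0.35 (limma adjusted p = 0.998), so differences within that interval remain compatible with the data. Ccr6 was not among the 248 genes, so no receptor value stands beside this ligand.

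**Figure D2:**
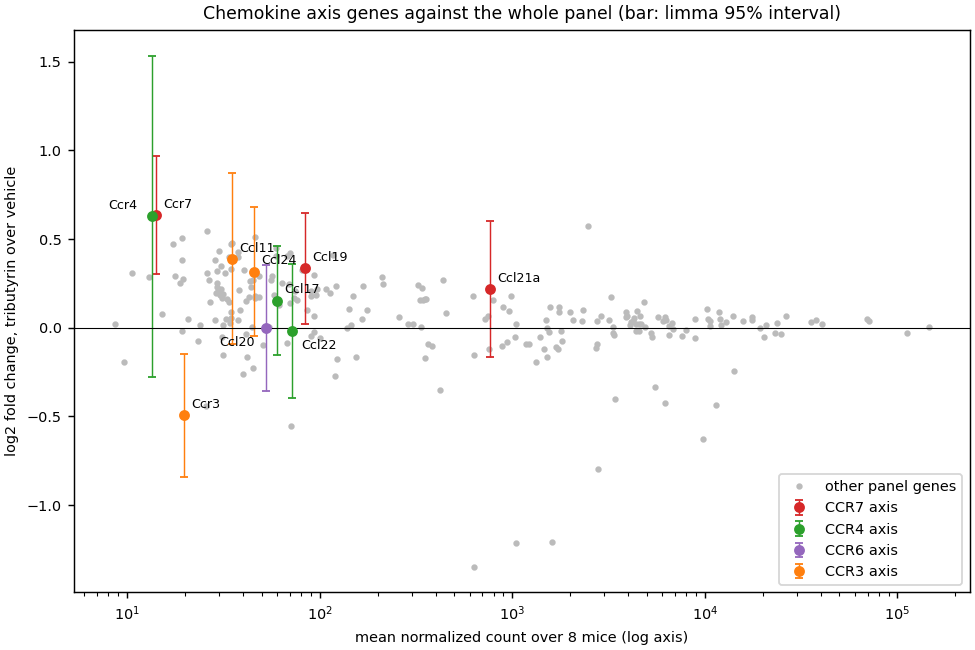
Log2 fold change of tributyrin over vehicle (y axis) against the mean normalized count over 8 mice (x axis, log scale) for 248 genes, with the 10 chemokine genes coloured by axis and bars for the limma 95% interval. Ccr7 at 0.64 is the highest point of the panel, and Ccr3 at -0.49 lies below the other genes with a mean under 50.

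The CCR3 axis split, with the receptor lower and both eotaxins higher in the mean. Ccr3 was measured at 28.4, 23.9, 19.3 and 20.5 in vehicle mice 5 to 8 and at 14.02, 15.9, 15.4 and 19.8 in tributyrin mice 9 to 12. The groups overlapped only because tributyrin mouse 12 lay just above vehicle mouse 7. With means of 23.0 ± 4.08 and 16.3 ± 2.48 (SD, n = 4 each), Ccr3 was at 0.71 of its vehicle level, a log2 fold change of -0.49 ± 0.15 (SE, 95% interval -0.84 to -0.15). The limma p was 0.0113 and 0.216 after adjustment, and the exact rank test gave p = 0.0571.

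Before scaling, the Ccr3 counts were 35, 22, 26 and 19 in the vehicle mice and 9, 19, 17 and 16 in the tributyrin mice, with sums of 102 and 61, and the groups overlapped. The total counts of the mice, 1035041 to 1494519 with vehicle and 742068 to 1344723 with tributyrin, also reached lower with tributyrin. After scaling, the ratio of pooled counts was 0.708, with a 95% counting interval of 0.507 to 0.981. The log2 SD was 0.25 in the vehicle mice and 0.21 in the tributyrin mice, where counting error alone would give 0.29 and 0.39. The limma SE of 0.15 was below the counting SE of 0.23, so for Ccr3 too the limma interval and p overstate the precision. Leaving out any single mouse gave values of -0.59 to -0.39 with limma adjusted p of 0.143 to 0.420, and leaving out tributyrin mice 9 and 12 gave -0.54 (limma adjusted p = 0.388). In the whole tissue, fewer CCR3-bearing cells and less Ccr3 RNA per cell cannot be told apart, and the same holds for every receptor here.

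Ccl11, eotaxin-1, made by fibroblasts and epithelium under type 2 cytokines, was measured at 28.4, 31.5, 36.3 and 23.8 in the vehicle mice and at 32.7, 31.9, 38.1 and 57.0 in the tributyrin mice. Mouse 12 stood apart from the rest of its group. The log2 fold change was 0.39 ± 0.21 (SE, 95% interval -0.094 to 0.87, limma adjusted p = 0.469), and 0.20 without mouse 12.

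Ccl24, eotaxin-2, a product of macrophages and epithelium, was measured at 37.3, 43.4, 48.9 and 33.5 in the vehicle mice and at 59.2, 40.2, 48.1 and 55.7 in the tributyrin mice. Mice 9 and 12 lay above the vehicle range, and mice 10 and 11 inside it. The log2 fold change was 0.32 ± 0.16 (SE, 95% interval -0.048 to 0.68, limma adjusted p = 0.454), and 0.12 without mice 9 and 12.

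The ratio of a receptor to its ligand within a mouse does not contain that mouse's scaling factor. The panel held both genes of 15 of 32 listed receptor and ligand pairs, of which 6 belong to these axes. After adjustment over the 15 pairs, 0 passed in the exact two-sided permutation test of the log2 ratio. The smallest p that 4 against 4 mice can give is 0.0286, and a few pairs at that p could not pass. The adjusted test therefore says little about any single pair. Before adjustment, Ccr3 to Ccl11 was the only pair whose groups did not overlap (1 of 15, 6.67%). Its log2 ratio was 0.00, -0.40, -0.91 and -0.21 in vehicle mice 5 to 8 and -1.22, -1, -1.30 and -1.52 in tributyrin mice 9 to 12. The receptor was thus less abundant relative to this ligand in every tributyrin mouse, by 0.88 in the mean on the log2 scale (exact permutation p = 0.0286, adjusted p = 0.429). Without tributyrin mice 9 and 12 the difference was -0.77 (exact permutation p = 0.133, where 4 against 2 mice give no p below 0.0667). The ratio rests on 9 to 35 counts of Ccr3 per mouse, and its counting error was not estimated.

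Ccr3 to Ccl24 differed in the same direction, by -0.81 (exact permutation p = 0.0571, adjusted p = 0.429), with vehicle mouse 7 level with tributyrin mouse 10 at -1.34. These comparisons share the Ccr3 values and are not independent. For the other axes the receptor was higher relative to the ligand in the mean, with overlap in all 4 pairs. The differences were 0.30 for Ccr7 to Ccl19 (exact permutation p = 0.171), 0.42 for Ccr7 to Ccl21a (exact p = 0.114), 0.48 for Ccr4 to Ccl17 (exact p = 0.343) and 0.65 for Ccr4 to Ccl22 (exact p = 0.257).

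**Figure D3:**
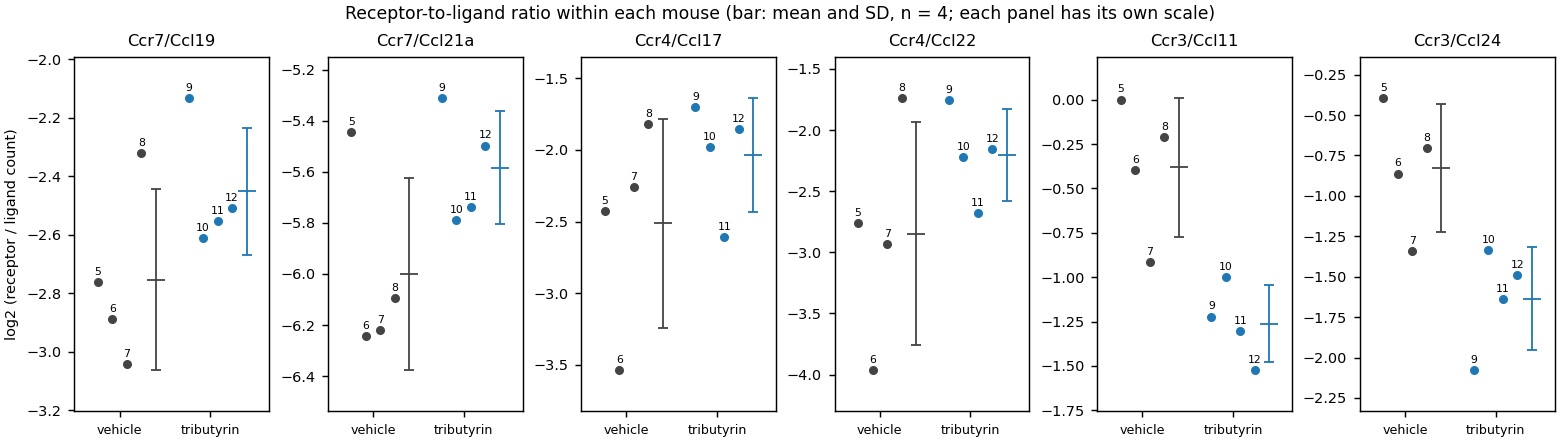
Log2 ratio of receptor to ligand normalized count (y axis, each panel on its own scale) within each mouse for the 6 pairs, with mouse numbers and bars for the mean and SD of 4 mice. The Ccr3 to Ccl11 panel is the one without overlap, with vehicle mice from -0.91 to 0.00 and tributyrin mice from -1.52 to -1.

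The 17 other chemokine genes of the panel give the setting for these values. All 17 were higher in the tributyrin group, with a median log2 fold change of 0.21. Of the whole panel 71.4% of genes were higher, and of the genes with a mean under 50, 62 of 73. Only 10 of the 17 chemokine genes were higher with quantile normalization (median 0.0093), and 12 of 17 without mice 9 and 12. Their values ran from 0.041 to 0.41, and 0 passed the adjusted threshold. The CCL2 receptor Ccr2, which brings monocytes into tissue, had the highest value at 0.41 ± 0.15 (SE, limma adjusted p = 0.321).

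Cytokines that induce these ligands were listed by axis, and 0 passed the adjusted threshold. Among those that maintain lymphoid stroma and its CCR7 ligands, 3 of 4 were lower: Ltb, the lymphotoxin beta subunit, had means of 132 ± 15.4 with vehicle and 109 ± 11.5 with tributyrin (SD, n = 4 each, log2 fold change -0.27, limma adjusted p = 0.366). Its partner Lta had -0.26 and Tnf -0.35, while Tnfsf14, which encodes LIGHT, had 0.47. The CCR7 ligands and these 3 cytokines therefore lay on opposite sides of 0.

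Of the type 2 cytokines upstream of the CCR4 and CCR3 ligands, 4 of 7 were measured. Il5, the growth factor of eosinophils, had means of 24.2 ± 0.599 with vehicle and 29.3 ± 3.39 with tributyrin (SD, n = 4 each), and the groups did not overlap (log2 fold change 0.27, limma adjusted p = 0.24). Of all genes, 3.23% were higher without overlap. The vehicle SD of Il5 is smaller than counting error would be expected to give at such a level. Il5 is also among the 73 genes with a mean under 50, of which 62 were higher. Il13 had 0.15, Il4 had -0.19 at a mean of only 9.60, and the epithelial alarmin Tslp had -0.021. The means of Il5 and of Ccr3 thus lay on opposite sides of 0.

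Among cytokines upstream of Ccl20, Il17a, the Th17 cytokine, had means of 21.0 ± 2.32 with vehicle and 30.9 ± 5.69 with tributyrin (SD, n = 4 each), again without overlap, as 3.23% of genes were higher (log2 fold change 0.55, limma adjusted p = 0.167). Like Il5, it is among the 73 genes with a mean under 50, and their values under the other settings are not given here. Tnf, which is also in this list, had -0.35, Il1b 0.10, Il1a -0.093 and Il22 0.021. The mean of Ccl20 was level between the groups while that of Il17a was higher with tributyrin.

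Marker genes of the cells concerned were few. For antigen-presenting cells 4 of 9 were measured (Cd40, Cd86, H2-Ea-ps and H2-Eb1), and their summed normalized count was 796 to 946 in vehicle mice and 785 to 1069 in tributyrin mice. H2-Eb1, with means of 749 with vehicle and 839 with tributyrin, made up most of that sum. H2-Ea-ps, a pseudogene by its symbol, had means of only 14.7 and 15.8. For T cells 3 of 5 were measured (Cd4, Cd40lg and Il2), with sums of 69.2 to 99.8 and 85.3 to 109. Both sums overlapped between the groups. In the mean, 3 of the 4 antigen-presenting cell markers and all 3 T cell markers were higher with tributyrin, as was 71.4% of the panel. Of these markers 0 passed the adjusted threshold. Macrophage markers (6 of 8) summed to 23697 to 28471 and 22261 to 28058, but Arg1, at a log2 fold change of -0.036, made up nearly all of that sum. The other 5 macrophage markers were higher in the mean, with log2 fold changes of 0.30 for Cd163, 0.24 for Mrc1, 0.16 for Tyrobp, 0.059 for C1qa and 0.021 for C1qb, and 0 of the 6 passed the adjusted threshold. The neutrophil receptor Cxcr2 ranged from 24.9 to 32.6 and from 28.5 to 46.7. No gene of the eosinophil, B cell, mast cell or conjunctival epithelium lists was among the 248, so neither the number of eosinophils nor the tissue label could be checked by them. The part of these cell types in the Ccr7 and Ccr3 values was not tested.

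Patterns over the 8 mice were compared by the root mean square difference of log2 deviations from each gene's mean, as a description, with scaling and group shared by all points. The 3 genes nearest to Ccr7 were the prostaglandin receptor gene Ptger3 at 0.19, Ccr2 at 0.19 and the mannose-binding lectin gene Mbl2 at 0.20, where the median of the 238 genes outside these axes was 0.36. Nearest to Ccl21a were Il12b at 0.10, Il1rn at 0.15 and Ripk2 at 0.16, where the median was 0.29.

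**Figure D4:**
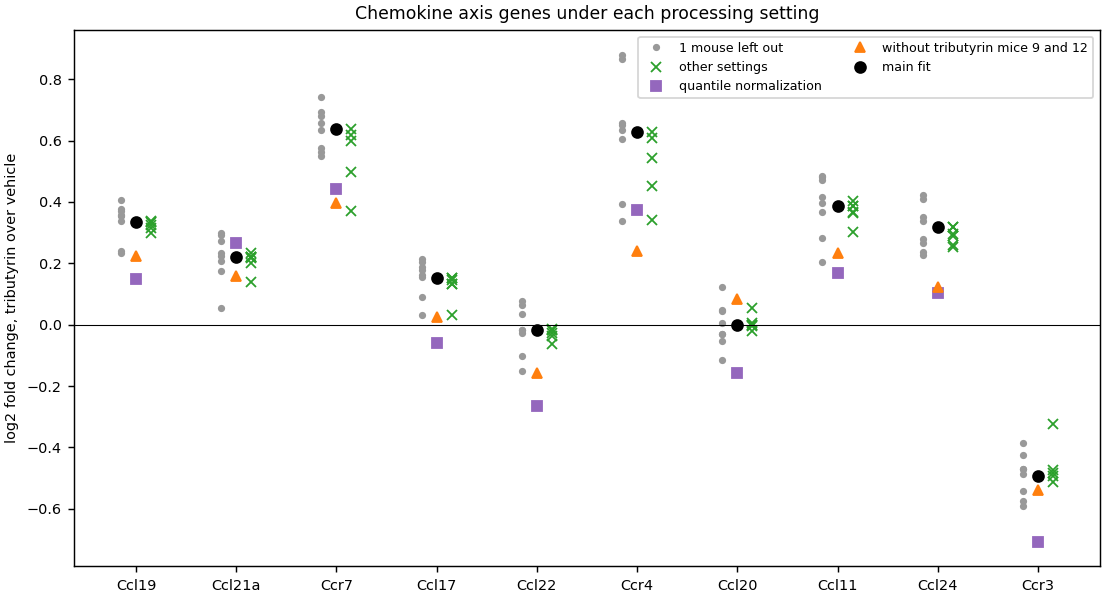
Log2 fold change of tributyrin over vehicle (y axis) of the 10 genes under the main fit (black), with 1 mouse left out (grey), with quantile normalization (purple), without tributyrin mice 9 and 12 (orange) and under the other settings (green). Ccr7 stays between 0.37 and 0.74 and Ccr3 between -0.71 and -0.32, whereas Ccl22, Ccl20 and Ccl17 lie on both sides of 0. Ccl17 is below 0 only with quantile normalization, at -0.060.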

How the data were processed

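Conjunctival RNA of 4 vehicle and 4 tributyrin mice under DS was counted with the nCounter Mouse Inflammation V2 panel. The authors scaled each mouse's counts by its 6 reference genes (their geometric mean), used ROSALIND, and deposited 1 column of log2 normalized counts per mouse for 248 genes. Any background subtraction is, as a step, not given in the sources used here. Unlogged values of a mouse were whole multiples of a single step for 100% of genes (tolerance 0.001), which gave the scaling factor and the whole counts, up to any whole number that was added or taken away earlier. Such scaling carries the counting error of low genes into their normalized values. Counting intervals (95%) cover counting error only.

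limma 3.58.1 (lmFit and eBayes without trend, two-sided) in R 4.3.3 was fitted to the deposited log2 values of all genes, with Benjamini-Hochberg adjustment over 248. Exact tests used the 70 assignments of the mice. Receptor and ligand ratios were adjusted over 15 measured pairs. The labels number each mouse, no columns were identical, and p-values measure the spread between these mice. Alternatives changed the low end (a pseudocount of 10, or a minimum mean of 20 or 100), the scaling (quantile normalization, median centring, or the log2 scaling factor as covariate), the test (exact rank tests, a mean-variance trend, or voom on the recovered counts) or the mice included. The script was tested on simulated data. Genes named are the 10 members, the measured cytokines of the inducer lists, and the 3 genes nearest in pattern to the member with the smallest unadjusted p and to the member with the highest normalized count. Ccr2, Arg1 and Cxcr2 were singled out after their values were seen. Members and lists were chosen with earlier results of these data known. All 10 members matched the RefSeq table (GRCm38.p6) by gene identifier. Levels of different genes rest on different probes, so they served to describe depth, to pick that member and to sum marker lists, and no difference in level between genes was tested. Python 3.11.15, NumPy 2.4.6, SciPy 1.17.1, pandas 2.3.3 and matplotlib 3.10.9 were used.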

Additional observations from a re-analysis of the deposited data

Results flagged for a closer look

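Ccl19 in vehicle mouse 8 stood apart from its group. Its log2 normalized count was 5.89, and the other vehicle mice were at 6.27 to 6.33, a gap of 0.864 of the group's range. Among the 32 groups of values tested in this way, chance alone flags about 1 in 20, or 1.6 groups. The log2 fold change of Ccl19 was 0.23 without that mouse, beside 0.33 with it.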

How the results depend on the processing

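At an adjusted p under 0.05, limma called 0 genes in the main analysis, and 31 had an unadjusted p under 0.05. A pseudocount of 10, a minimum mean of 20 and median centring each gave 6 genes. A minimum mean of 100, a mean-variance trend and voom on the recovered counts (chosen after seeing the data) each gave 7. It was 0 with quantile normalization, with the scaling factor as a covariate, without tributyrin mice 9 and 12, and with exact Mann-Whitney tests (smallest adjusted p 0.394). The exact tests could hardly pass, because 4 against 4 mice give no p below 0.0286. Leaving out each mouse gave 0 to 6 (6 when vehicle mouse 8 was out, 4 for tributyrin mouse 11, 1 for vehicle mouse 5). Among the members only Ccr7 was ever called, at 0.62 with median centring and 0.74 without tributyrin mouse 11, in a leave-one-out range of 0.55 to 0.74. Its order from the highest log2 fold change was 1 to 6 over the alternatives that kept it. Ccl17 reversed to -0.060 with quantile normalization. Ccl22, at -0.017, ranged from -0.15 to 0.077 when each mouse was left out and was -0.26 with quantile normalization and -0.16 without mice 9 and 12. Ccl20, at -5.25e-04, ranged from -0.12 to 0.12 when each mouse was left out and was -0.16 with quantile normalization, 0.085 without mice 9 and 12, 0.054 with the covariate and 0.0045 with voom. The cause of these shifts was not tested. Of 158 alternative values of the members, 145 kept their direction and side of the threshold. All 72 alternative values of the pair ratios kept their direction. That none of them passed the threshold says little, because a few pairs at the smallest possible p could not pass it. The minimum of 20 left out Ccr7, Ccr4 and Ccr3, and that of 100 left Ccl21a alone. No paired analysis was possible because no mouse number occurs in both groups. The 5 to 35 counts of the receptors limit what can be detected in them.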
